A study of Homo sapiens with 12 samples.

Results

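The response of U251 glioblastoma cells to temozolomide was measured in 6 messenger RNA libraries: 3 from cells given 50 µM temozolomide and 3 from cells given the solvent DMSO, each for 24 h. All 6 came from cells carrying the control short hairpin RNA shCtrl, introduced with a lentivirus; 6 further libraries carried the shCD44 hairpin and received the same treatments, which brings the series to 12 libraries in 4 groups of 3. U251 is an established human glioblastoma line, and all cells grew in high-glucose DMEM with fetal bovine serum. The labels give the genotype of the control cells as WT and that of the others as CD44 knockdown. The temozolomide libraries of the control group carry the mark NC in place of shCtrl, and NC was read as the same control hairpin because it also marks the DMSO libraries in the sample descriptions. The labels do not state if each library came from its own culture, and p-values therefore reflect only how far these libraries spread, which may be technical. The members of the comparison are the 12821 of 20289 genes in the count table that passed a filter on low counts; 3176 of the others had no count in any library.

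Temozolomide is the alkylating drug used against glioblastoma. It transfers methyl groups to purines in DNA. Most of these lesions are removed by base excision repair, while the methylated guanine that is toxic to the cell is reversed in 1 step by MGMT; where MGMT is absent, that guanine pairs with thymine during replication, mismatch repair acts on the pair again and again, and strand breaks and a halt before mitosis can follow in later cell cycles. After DNA damage, the p53 pathway raises CDKN1A and other genes that halt the cell cycle.

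Library totals ran from 15.7 to 17.6 (in units of 1e6 estimated counts) under DMSO and from 16.4 to 24.8 under temozolomide. A floor of 3 counts corresponded to 0.121 to 0.191 CPM, counts per 1e6 counts of a library, in these 6 libraries. MGMT had 0 counts in all 6. VIM and SOX2, which mark these glioma cells, were abundant, while GFAP, S100B and CHI3L1, which often mark glial tumours, were at or near 0; of the epithelial markers, EPCAM and CDH1 were at or near 0 while KRT14 and ELF3 were expressed. Of the 8 endothelial and fibroblast markers, CDH5 and COL1A2 fell, and the summed level of the 8 was 240.7 to 249.7 CPM under DMSO and 127 to 137 CPM under temozolomide, with DCN at 0 and PECAM1, VWF, CLDN5 and LUM at or under 0.473 CPM. Of 7 immune and 5 oligodendrocyte markers only 1 and 0 passed the filter, and 0 were called; their summed levels were at most 16.8 and 0.567 CPM. The libraries also differed in base composition: genes with over 60% GC stood 0.064 to 0.21 (log2, median deviation of 1726 genes) above genes with under 40% GC (2137 genes) in the DMSO libraries, and -0.13 to 0.039 in the temozolomide libraries. That difference of -0.20 had an exact two-sided permutation p of 0.1, the smallest that 3 libraries against 3 can give. Its part in the results was not tested. For many lists and genes, calls are given beside those obtained after a correction for GC content in each library. Values that stand alone are uncorrected, and the correction may change them.

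Of the 12821 genes, 3529 (27.5%) differed by edgeR's quasi-likelihood test with a Benjamini-Hochberg threshold of 0.05, and are said to be called: 1505 (11.7%) were higher and 2024 (15.8%) lower under temozolomide. Counts for every list below stand beside these shares of 11.7% and 15.8%. The changes were small. Among called genes the median log2 fold change was 0.23 for rises and -0.26 for falls, and 82 genes rose and 235 fell by at least 1.5-fold. At 2-fold or more, 30 genes rose and 61 fell. The spread between libraries was small too, with a biological coefficient of variation of 3.90%, and the first principal component of the 6 libraries held 43.4% of their variance and separated the treatments. The 3 temozolomide libraries did not overlap the 3 DMSO libraries for 5096 genes (39.7%), and 3392 genes (26.5%) were both called and without overlap. Falls made up 57.4% of the calls under TMM scaling. Scaling by library totals alone, which raised the median change of all genes from -0.004 to 0.063, gave 2870 genes called higher and 1295 lower, so that falls were 31.1% of the calls. The split between rises and falls thus depends on the scaling, and with the deposited FPKM values it was 1738 to 924. After the GC correction 1378 genes were higher and 1745 lower, of which 1007 and 1493 were also called without it.

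**Figure D1:**
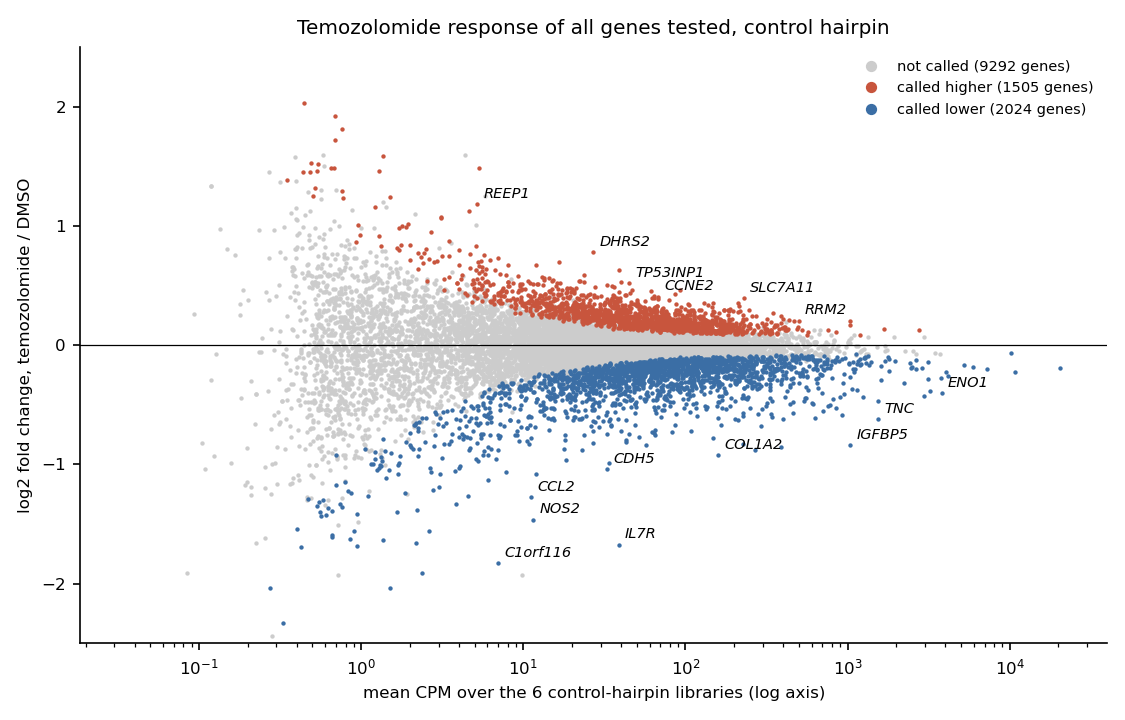
Log2 fold change of temozolomide over DMSO (vertical axis) against the mean CPM over the 6 control-hairpin libraries (horizontal, log axis) for each gene tested, with called genes in colour. The largest named falls (C1orf116, IL7R, NOS2) lie below -1.4 while most coloured points lie close to the zero line; 9 genes outside the axis are not drawn.

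MGMT, the enzyme that removes methyl groups from guanine, had no read in any library, and the mismatch repair genes MSH6 and PMS2 were not called. MSH6, which takes part in binding mispaired bases, read 232, 237 and 223 CPM under DMSO and 246, 241 and 238 CPM under temozolomide (log2 fold change 0.066, SE 0.033, adjusted p = 0.155); it was called higher on library totals alone (0.13, adjusted p = 0.00358) and in the 3 fits of FPKM values. PMS2, which takes part in cutting the DNA after a mispair is bound, had a log2 fold change of 0.081 (adjusted p = 0.356). Of 43 tested genes of alkylation reversal, mismatch repair and base excision repair, 2 rose (4.65%) and 8 fell (18.6%), beside 11.7% and 15.8% of all genes. Their median log2 fold change of -0.074 changed sign on the FPKM scale, and with the GC correction the counts were 2 and 6. APEX1, the endonuclease that cuts the DNA backbone at a lost base, read 138, 129.8 and 141 CPM under DMSO and 109, 110.2 and 110.4 CPM under temozolomide (log2 fold change -0.31, SE 0.038, adjusted p = 3.3e-06), so that its groups did not overlap. POLD2, a subunit of the replicative polymerase delta that also fills repair gaps, fell by 0.25 (adjusted p = 4.48e-05; -0.15 after the GC correction). MPG, the glycosylase that removes methylated purines, was not called (log2 fold change -0.074, SE 0.11, adjusted p = 0.674); 27.3% of its exon bases overlap another gene, and these libraries are not stated to mark strand. PARP1, which binds single-strand breaks, read 359, 354 and 344 CPM under DMSO and 330.0, 322 and 321 CPM under temozolomide, a fall of 0.12 (adjusted p = 0.00729) that was not called after the GC correction (0.051), on library totals alone or with the FPKM values.

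Genes that the p53 protein can activate split in both directions. Of 46 tested p53 targets, 10 rose and 5 fell, with a median of 0.035, beside 11.7% and 15.8% of all genes; after the GC correction 14 rose and 6 fell. CDKN1A, the cyclin-dependent kinase inhibitor that is the best known of them, read 30.9, 30.2 and 30.2 CPM under DMSO and 32.4, 33.3 and 30.4 CPM under temozolomide and was not called (log2 fold change 0.073, SE 0.06, adjusted p = 0.4); after the GC correction it was called higher, at 0.16 (adjusted p = 0.0479). Nor were GADD45A (adjusted p = 0.876), SESN2 (0.274) or GDF15 (0.101), although GDF15 was called lower without DMSO replicate 2 (-0.35) or temozolomide replicate 1 (-0.43) and with the replicate block (-0.29). The rises included TP53INP1, a stress-induced regulator of autophagy, which read 35.7, 37.7 and 37.1 CPM under DMSO and 49, 55.6 and 54.7 CPM under temozolomide (log2 fold change 0.52, SE 0.061, adjusted p = 2.41e-06). RRM2B, the ribonucleotide reductase subunit induced by p53, read 125, 130.3 and 134 CPM under DMSO and 169, 162 and 167 CPM under temozolomide (log2 fold change 0.36, SE 0.04, adjusted p = 1.31e-06). MDM2, a ubiquitin ligase, read 148, 168 and 146 CPM under DMSO and 173, 182 and 180.3 CPM under temozolomide (log2 fold change 0.21, SE 0.046, adjusted p = 0.00174). In each of these the lowest temozolomide library lay above the highest DMSO library. CCNG1, a cyclin and p53 target, rose by 0.29 (adjusted p = 7.18e-05). The GC correction lowered the changes of TP53INP1, RRM2B, MDM2 and CCNG1 to 0.45, 0.25, 0.17 and 0.20, with all still called. Among the falls, PLK2, a kinase of centriole duplication, read 219, 218 and 225 CPM under DMSO and 152, 161 and 153 CPM under temozolomide (log2 fold change -0.51, SE 0.035, adjusted p = 9.98e-10).

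Among 32 DNA damage signalling kinases and adaptors, 5 rose (15.6%) and 3 fell (9.38%), with 2 and 1 after the GC correction, and CHEK1, the kinase that holds cells before mitosis, was not called (log2 fold change -0.024, SE 0.038, adjusted p = 0.687). CLSPN, the adaptor through which CHEK1 is activated, read 94.3, 103 and 92.2 CPM under DMSO and 112, 108 and 105 CPM under temozolomide (log2 fold change 0.17, SE 0.042, adjusted p = 0.00396). Double-strand break and crosslink repair had 9 rises (18%) and 8 falls (16%) among 50 genes, beside 11.7% and 15.8% of all genes, and 4 and 5 after the GC correction. BRIP1, a helicase bound to BRCA1, rose by 0.22 (adjusted p = 0.00209; 0.13 after the GC correction), and BRCA1 rose by 0.24 (adjusted p = 0.000374), a call lost with the FPKM values. XRCC6, XRCC5 and PRKDC, which act in end joining, fell by 0.14, 0.12 and 0.13 (adjusted p = 0.00105, 0.00496 and 0.00654). These calls were lost on library totals alone and with the FPKM values. BABAM2, a subunit of the BRCA1-A complex and a member of the signalling list, fell by 0.29 (adjusted p = 0.000358). In nucleotide excision and translesion repair, 5 of 32 genes rose (15.6%) and 3 fell (9.38%). On library totals alone the rises and falls were 11 and 1 for signalling, 16 and 1 for double-strand break and crosslink repair, 9 and 1 for excision and translesion repair and 9 and 4 for alkylation and base excision repair, so their direction depends on the scaling. Leaving out single control libraries gave 2 to 6 rises for signalling and 4 to 9 rises and 4 to 7 falls for double-strand break and crosslink repair, lowest without temozolomide replicate 2 (signalling), DMSO replicate 3 or temozolomide replicate 3 (break repair rises) and temozolomide replicate 3 (break repair falls). The repair and signalling lists thus held rises and falls side by side, none of the named members reaching a 1.5-fold change.

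Small rises were common among genes of mitosis. Of 66 genes of G2/M and mitosis, 26 (39.4%) rose and 1 fell, with a median of 0.094; all genes tested had 11.7% rises. After the GC correction, 19 rose and 2 fell with a median of 0.066. Without temozolomide replicate 2 or 3 the rises numbered 17, and on library totals alone 38. CKAP2L, a spindle protein, read 94.9, 98.4 and 98.5 CPM under DMSO and 114, 125 and 119 CPM under temozolomide (log2 fold change 0.29, SE 0.039, adjusted p = 1.17e-05). Its relative CKAP2 rose by 0.30 (adjusted p = 7.16e-05). KIF11, the motor that pushes the spindle poles apart, read 307, 324 and 309.8 CPM under DMSO and 346, 376 and 354 CPM under temozolomide (log2 fold change 0.19, SE 0.037, adjusted p = 0.000516). CCNB2, a cyclin that activates the mitotic kinase CDK1, read 115.9, 119 and 122 CPM under DMSO and 138, 133 and 139 CPM under temozolomide (log2 fold change 0.20, SE 0.04, adjusted p = 0.000941). For all 4 genes the temozolomide libraries lay above the DMSO libraries, and for all 4 the call held under each alternative run. The 4 were picked by small p and with those calls in view, so this does not describe the other members. Lack of overlap was also usual, found in 3392 of the 3529 called genes. The changes of KIF11 and CKAP2 were smaller after the GC correction, 0.11 and 0.20. TOP2A, the topoisomerase that untangles sister chromatids, was among the 6 largest gains in mean CPM, and read 1569, 1668 and 1545 CPM under DMSO and 1714, 1753 and 1797 CPM under temozolomide (log2 fold change 0.14, SE 0.036, adjusted p = 0.00636); its adjusted p after the GC correction was 0.0918. MKI67, the proliferation marker, was not called (log2 fold change -0.073, SE 0.033, adjusted p = 0.109). MYBL2, a transcription factor of these genes, was the only member to fall (log2 fold change -0.18, SE 0.04, adjusted p = 0.00227), with an adjusted p of 0.149 after the GC correction.

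Genes of G1/S and DNA replication went both ways, with 6 rises (10.9%) and 13 falls (23.6%) among 55, beside 11.7% and 15.8% of all genes. Their median of -0.016 became 0.051 on library totals alone. The GC-corrected counts were 9 and 12, and those on library totals alone 19 and 8. MCM5 and MCM7, subunits of the replicative helicase, fell. MCM5 read 132, 127 and 133 CPM under DMSO and 105, 103 and 97.5 CPM under temozolomide (log2 fold change -0.36, SE 0.045, adjusted p = 4.87e-06). MCM7 read 371, 369.9 and 361 CPM under DMSO and 319, 315 and 312 CPM under temozolomide (log2 fold change -0.22, SE 0.03, adjusted p = 1.41e-05; -0.13 after the GC correction). Other S-phase genes rose: RRM2, the ribonucleotide reductase subunit that supplies deoxynucleotides, read 462, 471 and 458 CPM under DMSO and 531, 552 and 522 CPM under temozolomide (log2 fold change 0.21, SE 0.033, adjusted p = 7.99e-05), and DSCC1, part of a clamp loader used in sister chromatid cohesion, rose by 0.30 (adjusted p = 0.000226). CCNE2, the cyclin that starts S phase, read 58, 59.96 and 57.3 CPM under DMSO and 77.6, 78.7 and 76 CPM under temozolomide (log2 fold change 0.41, SE 0.042, adjusted p = 4.13e-07), although 37% of its exon bases overlap INTS8. The change of CCNE2 was 0.31 after the GC correction. PCNA, the sliding clamp, was not called (log2 fold change -0.034, SE 0.039, adjusted p = 0.564). None of 15 tested replication-dependent histone genes was called, of 60 listed; poly(A) selection captures few of these transcripts. Of 23 CDK inhibitors and senescence factors, 0 rose and 9 fell, with a median of -0.16, and after the GC correction 3 rose and 8 fell. The falls with the smallest p were IGFBP5, CCL2, HMGA1 and STC1, which are not CDK inhibitors.

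Known cell cycle motifs were counted in the promoters of these groups. Windows from RefSeq (GRCh38.p14), reaching from 250 bases before a transcription start to 50 after it, matched 10275 of the 12821 genes, and were searched on both strands. TTTGAA, the core of the cell cycle homology element that keeps mitotic genes silent until G2, occurred in 76.4% of the 55 matched G2/M genes, against 14.2% of all genes. CCAAT, which often accompanies it, occurred in 74.5% against 44%. An E2F motif, TTTCCCGC or TTTGGCGC, occurred in 48.8% of the 43 matched G1/S genes against 4.67%. These shares describe the lists, which were assembled from known function, and not the response. Among all genes that rose, TTTGAA was in 14.6%, close to the share of all genes. The 250 bases before the start are shown for CCNB2 and KIF11, which rose, and for MCM7, which fell; capitals mark TTTGAA in the first 2 and the E2F motif in MCM7, which in KIF11 and MCM7 lies on the opposite strand and so shows as its reverse complement. The windows lie at chr15:59104896-59105145 (plus strand), chr10:92592880-92593129 (plus strand) and chr7:100101398-100101647 (minus strand).
CCNB2: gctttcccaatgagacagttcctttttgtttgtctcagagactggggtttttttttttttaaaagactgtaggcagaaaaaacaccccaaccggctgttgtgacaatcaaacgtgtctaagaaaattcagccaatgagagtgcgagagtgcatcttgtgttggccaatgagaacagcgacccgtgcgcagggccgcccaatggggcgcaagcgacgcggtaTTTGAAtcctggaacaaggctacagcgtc
KIF11: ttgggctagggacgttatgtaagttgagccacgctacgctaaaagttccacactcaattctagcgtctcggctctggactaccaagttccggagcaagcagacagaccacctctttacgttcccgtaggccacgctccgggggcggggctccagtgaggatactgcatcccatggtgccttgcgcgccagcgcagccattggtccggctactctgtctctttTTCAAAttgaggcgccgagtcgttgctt
MCM7: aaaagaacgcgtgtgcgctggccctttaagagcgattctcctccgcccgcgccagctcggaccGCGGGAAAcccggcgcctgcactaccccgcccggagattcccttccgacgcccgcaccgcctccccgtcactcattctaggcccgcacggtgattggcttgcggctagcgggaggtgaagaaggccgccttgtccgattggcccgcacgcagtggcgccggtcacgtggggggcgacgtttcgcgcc
In CCNB2 and KIF11 the TTTGAA ended 23 and 22 bases before the start, and in MCM7 the E2F motif ended 179 bases before it.

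The extracellular matrix showed some of the larger falls. Of 26 tested collagen genes, 10 fell (38.5%) and 2 rose (7.69%), with a median of -0.33, and the GC-corrected counts were 8 and 3. COL1A2, a chain of type I collagen at chr7:94394561-94431232 on the plus strand (GRCh38), read 206, 211 and 206 CPM under DMSO and 115.6, 102 and 111 CPM under temozolomide (log2 fold change -0.92, SE 0.045, adjusted p = 7.16e-12), so its level under temozolomide was 52.6% of that under DMSO and the groups lay far apart. Its usual partner chain COL1A1 was at 0.767 to 1.42 CPM in these libraries. COL5A2 and COL12A1, fibril and fibril-associated chains, fell by 0.35 and 0.32 (adjusted p = 2.21e-06 and 2.29e-06). The 2 rises were basement membrane chains that are neighbours in the genome: COL4A3 read 3.95, 3.12 and 3.82 CPM under DMSO and 5.33, 5.81 and 6.03 CPM under temozolomide (log2 fold change 0.65, SE 0.15, adjusted p = 0.00212) and COL4A4 read 3.55, 5.04 and 4.23 CPM under DMSO and 7.02, 7.26 and 7.43 CPM under temozolomide (log2 fold change 0.76, SE 0.16, adjusted p = 0.00117). Both stood at only a few CPM. Their groups did not overlap, which for COL4A4 was a condition of its place among the 12 largest rises.

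Matrix glycoproteins and proteoglycans had 21 falls and 2 rises among 35 genes (median -0.29; 20 and 2 after the GC correction). THBS1, thrombospondin, an adhesive glycoprotein that can activate latent TGF-beta, read 297, 298 and 279.7 CPM under DMSO and 171, 165 and 157 CPM under temozolomide (log2 fold change -0.83, SE 0.042, adjusted p = 1.39e-11). TNC, tenascin C, an abundant matrix protein of glioblastoma, read 1925, 1906 and 1805 CPM under DMSO and 1278, 1197 and 1196 CPM under temozolomide (log2 fold change -0.62, SE 0.033, adjusted p = 3.91e-11). POSTN, periostin, read 202, 213 and 200.3 CPM under DMSO and 129, 119.8 and 137 CPM under temozolomide (log2 fold change -0.67, SE 0.045, adjusted p = 7.6e-10). The 3 genes fell to 56.4%, 65.1% and 62.8% of their DMSO levels, without overlap. FBN1, the fibrillin of microfibrils, went the other way and rose by 0.19 (adjusted p = 0.00291). Of 24 enzymes of matrix crosslinking and collagen processing, 10 fell and 0 rose. LOXL4, a lysyl oxidase that crosslinks collagen, read 82.7, 83.3 and 78.9 CPM under DMSO and 50.03, 46.6 and 48.2 CPM under temozolomide (log2 fold change -0.75, SE 0.048, adjusted p = 5.06e-10), and LOXL2 fell by 0.41 (adjusted p = 3.83e-06).

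Proteases and their inhibitors fell too, with 12 falls and 4 rises among 32 metalloproteinases, ADAMs and inhibitors (10 and 3 after the GC correction). TIMP3, a matrix-bound metalloproteinase inhibitor, read 369.9, 362 and 352 CPM under DMSO and 227, 226 and 225 CPM under temozolomide (log2 fold change -0.67, SE 0.032, adjusted p = 5.83e-12). MMP2, a gelatinase, read 282, 282 and 273 CPM under DMSO and 221, 194 and 203 CPM under temozolomide (log2 fold change -0.43, SE 0.043, adjusted p = 2.06e-07). MMP14, the membrane protease that activates MMP2, read 41.7, 37.8 and 38.3 CPM under DMSO and 47.2, 45.2 and 46.8 CPM under temozolomide and rose (log2 fold change 0.24, SE 0.056, adjusted p = 0.0026). The inhibitor, the gelatinase and its activator thus did not share a direction. PLAU, the urokinase plasminogen activator, fell by 0.55 (adjusted p = 1.54e-06), with 31.1% of its exon bases shared with C10orf55.

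Among 36 genes of integrins and focal adhesion, 18 fell and 1 rose (16 and 0 after the GC correction), with a median of -0.17. ITGB4, the laminin-binding integrin chain of hemidesmosomes, read 545, 552 and 547 CPM under DMSO and 381, 362 and 364 CPM under temozolomide (log2 fold change -0.57, SE 0.032, adjusted p = 8.31e-11). ACTN4, an actinin that ties actin to adhesions, read 649.6, 635 and 633 CPM under DMSO and 494, 465 and 449.5 CPM under temozolomide (log2 fold change -0.44, SE 0.037, adjusted p = 1.81e-08). TNS3, a tensin, fell by 0.51 (adjusted p = 1.55e-07), and CD44, the hyaluronan receptor that the other hairpin targets, read 1127, 1102 and 1043 CPM under DMSO and 851, 808 and 804 CPM under temozolomide (log2 fold change -0.41, SE 0.033, adjusted p = 1.27e-08). Of 41 tubulins, actins and regulators, 18 fell and 4 rose (13 and 5 after the GC correction). CALD1, caldesmon, an actin-binding regulator of contraction, read 343, 370.2 and 344 CPM under DMSO and 243, 241 and 245 CPM under temozolomide (log2 fold change -0.54, SE 0.034, adjusted p = 5.06e-10), and MYH9, a non-muscle myosin heavy chain, fell by 0.37 (adjusted p = 6.39e-07). The 4 rises were 3 tubulins and ACTR2. TUBB4B read 386, 370.3 and 396 CPM under DMSO and 433, 425 and 421 CPM under temozolomide (log2 fold change 0.15, SE 0.035, adjusted p = 0.00291; 0.25 after the GC correction). TUBB2A rose by 0.26 (adjusted p = 0.00647), although a near-identical copy could share its reads, and TUBB3 rose by 0.55 (adjusted p = 0.000475), with 35.8% of its exon bases in an overlapping gene. ACTR2, a subunit of the Arp2/3 complex that branches actin filaments, rose by 0.11 (adjusted p = 0.0206), and was not called after the GC correction (0.53) or without DMSO replicate 3 or temozolomide replicate 2.

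Keratins and other epithelial markers had the lowest median of the 37 lists: 12 of the 18 that passed the filter, of 23 listed, fell and 1 rose, with a median of -0.44, and the GC-corrected counts were 12 and 2. KRT80 read 508, 502 and 496 CPM under DMSO and 288, 281 and 262 CPM under temozolomide (log2 fold change -0.86, SE 0.04, adjusted p = 5.83e-12). KRT5, a basal epithelial keratin, read 812, 847 and 841 CPM under DMSO and 557, 582 and 563 CPM under temozolomide (log2 fold change -0.55, SE 0.051, adjusted p = 8.89e-08). ELF3, an epithelial ETS transcription factor, read 80.3, 74 and 79.5 CPM under DMSO and 47, 50.1 and 43.8 CPM under temozolomide (log2 fold change -0.73, SE 0.054, adjusted p = 2.84e-09). KRT10 was the 1 member that rose, from a low level (11.1, 9.95 and 11.4 CPM under DMSO and 14.8, 16.3 and 12.4 CPM under temozolomide; adjusted p = 0.00726). Mesenchymal factors fell alongside, 10 of 15 with 0 rises and a median of -0.36. VIM, the intermediate filament of mesenchymal and glial cells and one of the 6 largest losses in mean CPM, read 3486, 3346 and 3299.7 CPM under DMSO and 2620.3, 2489 and 2442 CPM under temozolomide (log2 fold change -0.42, SE 0.031, adjusted p = 3.22e-09). CDH11, a mesenchymal cadherin, read 296, 298 and 296 CPM under DMSO and 207, 200.1 and 211 CPM under temozolomide (log2 fold change -0.53, SE 0.034, adjusted p = 5.71e-10), and PRRX1, a mesenchymal homeobox factor, fell by 0.40 (adjusted p = 1.74e-06). Epithelial and mesenchymal genes thus fell in the same libraries. In bulk RNA, fewer cells of a type and less RNA per cell cannot be told apart.

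**Figure D2:**
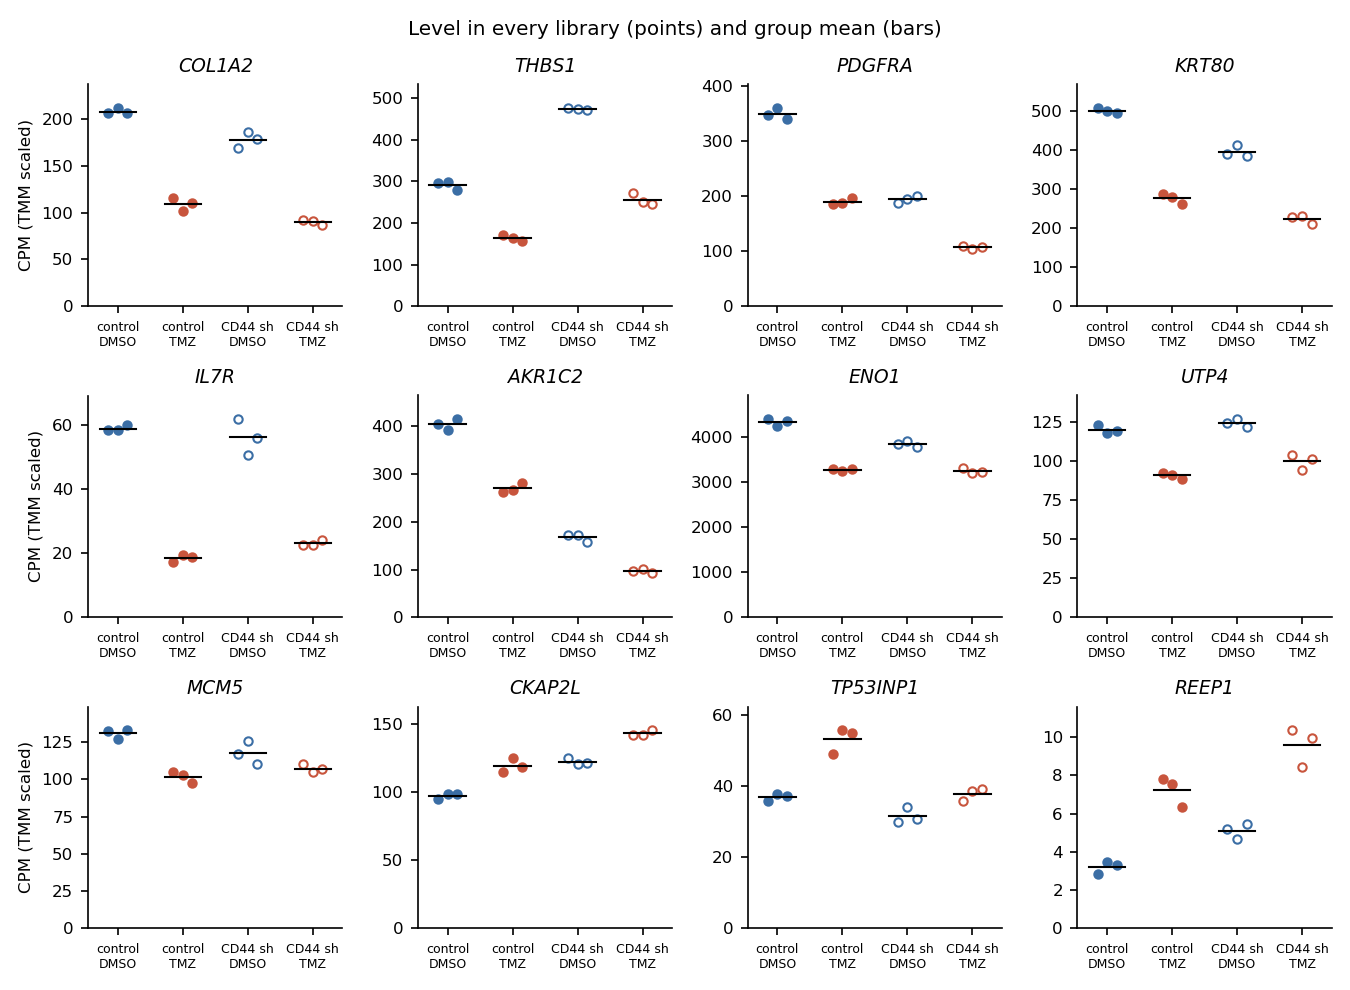
CPM of 12 genes in every library (points) with the mean of each group (bars), for both hairpins and treatments. In the control-hairpin groups, COL1A2, THBS1, PDGFRA, KRT80, IL7R, AKR1C2, ENO1, UTP4 and MCM5 are lower under temozolomide and CKAP2L, TP53INP1 and REEP1 are higher, with no overlap between the 3 libraries of each treatment. For IL7R and REEP1 the lack of overlap was a condition of their selection.

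YAP and TAZ are transcriptional coactivators that respond to adhesion and tension and act through TEAD factors. Of 30 of their targets, 16 fell and 0 rose (15 and 0 after the GC correction), with a median of -0.16. ANKRD1, a muscle ankyrin repeat protein and classic target, read 36.9, 39.1 and 39.5 CPM under DMSO and 24, 27.6 and 25.9 CPM under temozolomide (log2 fold change -0.58, SE 0.065, adjusted p = 1.17e-06). F3, tissue factor, read 51, 53.7 and 51.3 CPM under DMSO and 34, 35.4 and 31.8 CPM under temozolomide (log2 fold change -0.62, SE 0.064, adjusted p = 4.13e-07), and MYOF, myoferlin, fell by 0.44 (adjusted p = 1.42e-09). The TEAD motif CATTCCA was in 26.1% of the 23 matched YAP and TAZ targets and in 3.76% of all genes; among genes called lower it was in 5.29%. The 250 bases before the ANKRD1 start (chr10:90921088-90921337, minus strand) hold 1 copy on the opposite strand, shown in capitals as its reverse complement, ending 122 bases before the start.
ANKRD1: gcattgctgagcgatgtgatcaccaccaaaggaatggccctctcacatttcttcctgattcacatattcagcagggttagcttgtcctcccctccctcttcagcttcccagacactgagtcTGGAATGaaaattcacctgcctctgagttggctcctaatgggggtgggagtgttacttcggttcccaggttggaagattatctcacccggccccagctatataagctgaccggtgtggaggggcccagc
TGF-beta targets and signalling genes had 15 falls (41.7%) and 5 rises (13.9%) among 36. The counts were 14 and 3 after the GC correction, with 3 rises also without DMSO replicate 1 or temozolomide replicate 3. THBS1 and TGFBI, which fell, are also in the list of matrix glycoproteins and proteoglycans. TGFBI, an adhesion protein induced by TGF-beta, read 269, 253 and 246 CPM under DMSO and 172, 158 and 167 CPM under temozolomide (log2 fold change -0.63, SE 0.04, adjusted p = 5.06e-10). PMEPA1, a feedback inhibitor of the pathway, read 332, 341 and 335 CPM under DMSO and 232, 224 and 219.5 CPM under temozolomide (log2 fold change -0.58, SE 0.035, adjusted p = 2.93e-10). TGFBR1, its type I receptor, rose by 0.27 (adjusted p = 0.00387).

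Growth factor receptors and their feedback genes fell more often than they rose. Of 36 genes of MAPK feedback and growth factor response, 14 fell and 3 rose (13 and 3 after the GC correction). PDGFRA, the platelet-derived growth factor receptor that is amplified in some glioblastomas, read 347, 359 and 340.2 CPM under DMSO and 186, 188 and 196 CPM under temozolomide (log2 fold change -0.88, SE 0.036, adjusted p = 7.93e-13), 54.5% of its DMSO level. EGFR, the receptor most often amplified in glioblastoma, read 119.7, 119 and 114 CPM under DMSO and 96.9, 98.1 and 96.4 CPM under temozolomide (log2 fold change -0.27, SE 0.036, adjusted p = 9.76e-06). CCND1, the cyclin that links growth factor signals to the cell cycle, read 198, 197 and 192 CPM under DMSO and 155, 155 and 147 CPM under temozolomide (log2 fold change -0.36, SE 0.043, adjusted p = 2.87e-06). EGFR and CCND1 kept 82.7% and 77.9% of their DMSO levels, smaller falls than that of PDGFRA. HBEGF, a ligand of EGFR, rose from a low level (1.84, 2.06 and 1.53 CPM under DMSO and 3.05, 2.96 and 3.22 CPM under temozolomide; adjusted p = 0.00554). Among 31 AP-1 and immediate-early genes, 9 fell and 3 rose (7 and 4 after the GC correction; 5 and 4 on library totals alone). MYC fell (80.01, 68.6 and 78.5 CPM under DMSO and 55.4, 56.6 and 53.7 CPM under temozolomide; adjusted p = 5.32e-06), as did JUN, a subunit of AP-1, by 0.34 (adjusted p = 1.87e-05). EGR1 and ATF3, which many stresses induce, rose. EGR1 read 2.30, 2.65 and 2.41 CPM under DMSO and 4.53, 4.66 and 4.33 CPM under temozolomide (log2 fold change 0.88, SE 0.17, adjusted p = 0.000474). ATF3 read 4.87, 5.31 and 5.93 CPM under DMSO and 7.90, 7.32 and 7.73 CPM under temozolomide (log2 fold change 0.51, SE 0.12, adjusted p = 0.00334). Both were below 10 CPM in all 6 libraries.

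Axon guidance genes, many of which steer cell migration in glioma, showed 26 falls (63.4%) and 1 rise among 41, with a median of -0.27; the GC-corrected counts were 22 and 1. NRP2, a semaphorin and VEGF coreceptor, read 381, 389 and 362 CPM under DMSO and 294, 291 and 286 CPM under temozolomide (log2 fold change -0.38, SE 0.032, adjusted p = 2.68e-08). UNC5B, a netrin receptor, fell by 0.42 (adjusted p = 4.11e-06), and PLXNA2, a semaphorin receptor, by 0.36 (adjusted p = 6.53e-06). Wnt and Notch components had 10 falls (22.2%) and 4 rises (8.89%) among 45, beside 15.8% and 11.7% of all genes. After the GC correction 9 fell and 6 rose, and the median went from -0.12 to -0.030. WNT7B, a Wnt ligand, read 100.02, 109 and 99.98 CPM under DMSO and 66.7, 60.2 and 59.3 CPM under temozolomide (log2 fold change -0.73, SE 0.053, adjusted p = 2.57e-09). CTNNB1, beta-catenin, fell by 0.24 (adjusted p = 4.4e-06), and DKK1, a secreted Wnt inhibitor, by 0.36 (adjusted p = 5.7e-06). JAG1, a Notch ligand, fell by 0.31 (adjusted p = 1.14e-05). Of 25 neural stem cell and glioma identity factors, 7 fell (28%) and 1 rose (4%). SOX2, a stem cell transcription factor, was not called (log2 fold change 0.033, SE 0.034, adjusted p = 0.514) except on library totals alone, while FABP7, a radial glia lipid carrier, fell by 0.45 (adjusted p = 0.00128) and BMI1, a Polycomb subunit, rose by 0.20 (adjusted p = 0.000959; 0.13 after the GC correction).

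Ribosome biogenesis had the largest number of falls of the 37 lists described. Of 53 tested genes of ribosome biogenesis and MYC targets, 34 (64.2%) fell and 0 rose, with a median of -0.18; 31 fell and 0 rose after the GC correction, and 22 fell and 1 rose on library totals alone. UTP4, which processes the small-subunit ribosomal RNA, read 123, 118 and 119 CPM under DMSO and 92.6, 91.3 and 88.5 CPM under temozolomide (log2 fold change -0.40, SE 0.041, adjusted p = 3.25e-07). BOP1, which acts on the large subunit, fell by 0.41 (adjusted p = 1.33e-06). FBL, fibrillarin, the methyltransferase of ribosomal RNA, read 181, 175 and 182 CPM under DMSO and 146, 142 and 144 CPM under temozolomide (log2 fold change -0.31, SE 0.036, adjusted p = 2.14e-06). The E-box CACGTG, which MYC and other factors bind, was in 45.5% of the 44 matched genes of this list and in 12.4% of all genes; it was in 16.4% of the genes called lower and 10.3% of those called higher. Genes called lower were more often rich in GC than those called higher, and motif shares among called genes were not adjusted for base composition. ACGTG, counted separately, is contained in every CACGTG. The UTP4 window (chr16:69132399-69132648, plus strand) holds the E-box, in capitals, ending 10 bases before the start.
UTP4: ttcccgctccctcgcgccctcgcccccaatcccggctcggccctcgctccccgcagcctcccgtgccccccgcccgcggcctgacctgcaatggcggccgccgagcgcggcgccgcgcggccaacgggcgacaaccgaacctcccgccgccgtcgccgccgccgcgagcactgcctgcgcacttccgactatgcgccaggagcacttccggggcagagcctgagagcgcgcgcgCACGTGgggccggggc
Translation factors had 22 falls and 4 rises among 49 (21 and 3 after the GC correction; 10 and 7 on library totals alone). EIF3B and EIF3D, subunits of the initiation factor that holds the small ribosomal subunit, fell by 0.28 and 0.29 (adjusted p = 1.12e-06 and 2.75e-05), while EIF1, which guards start codon choice, rose by 0.16 (adjusted p = 0.00122). Of 79 cytosolic ribosomal protein genes, 18 fell (22.8%) and 0 rose, beside 15.8% and 11.7% of all genes. With the GC correction, 13 of them fell and 1 rose. Their median of -0.048 became 0.019 on library totals alone. Without DMSO replicate 3, 10 fell, and 32 fell without DMSO replicate 2, while 0 to 12 rose as single libraries were left out. RPS15 read 376, 339.6 and 360.1 CPM under DMSO and 308, 279.9 and 298 CPM under temozolomide (log2 fold change -0.28, SE 0.05, adjusted p = 0.000282; -0.18 after the GC correction). Of the 13 genes encoded in mitochondrial DNA, 8 fell and 0 rose; 1 was called lower with the FPKM values at either pseudocount and 0 without a filter. MT-ND2, a subunit of complex I, read 4436, 4840.4 and 4328 CPM under DMSO and 4046, 3606 and 3691 CPM under temozolomide (log2 fold change -0.26, SE 0.042, adjusted p = 8.88e-05). MT-CO1, a subunit of cytochrome oxidase and one of the largest losses in mean CPM, read 21294, 23241 and 21122 CPM under DMSO and 20497, 18008 and 19047 CPM under temozolomide (log2 fold change -0.19, SE 0.039, adjusted p = 0.00111).

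Of 45 hypoxia response and glycolysis genes, 22 fell and 2 rose, with a median of -0.17 (21 and 1 after the GC correction). ENO1, the glycolytic enolase, read 4386, 4247 and 4343 CPM under DMSO and 3284, 3231 and 3292 CPM under temozolomide (log2 fold change -0.40, SE 0.026, adjusted p = 5.06e-10). SLC2A1, the glucose transporter GLUT1, read 531, 541 and 532 CPM under DMSO and 397, 389 and 369 CPM under temozolomide (log2 fold change -0.47, SE 0.034, adjusted p = 2.49e-09). VEGFA, the angiogenic growth factor, read 192, 186 and 181 CPM under DMSO and 139.9, 133 and 127 CPM under temozolomide (log2 fold change -0.48, SE 0.04, adjusted p = 2.2e-08). Each lay lower in all 3 temozolomide libraries than in any DMSO library. Lipid synthesis genes split. Of 31 genes of cholesterol synthesis and uptake, 9 fell and 3 rose, with a median of 0.049, above 0; 5 fell and 4 rose after the GC correction, and 5 and 10 on library totals alone. DHCR7, which makes cholesterol from its last precursor, read 271, 277 and 274 CPM under DMSO and 187, 178 and 180.3 CPM under temozolomide (log2 fold change -0.59, SE 0.035, adjusted p = 2.24e-10). SREBF1, a transcription factor of lipid synthesis, fell by 0.45 (adjusted p = 1.35e-06). IDI1, an early enzyme of the pathway, rose instead (52.4, 56.5 and 53 CPM under DMSO and 65.7, 70.3 and 77.2 CPM under temozolomide; adjusted p = 3.59e-05). Of 24 fatty acid genes, 9 fell and 4 rose, with a median of 0.01. After the GC correction 6 fell and 4 rose, with a median of -0.04. FASN, fatty acid synthase, read 386, 393 and 369 CPM under DMSO and 292, 273 and 275 CPM under temozolomide (log2 fold change -0.45, SE 0.043, adjusted p = 1.67e-07), and ELOVL4, which extends very long chains, rose by 0.40 (adjusted p = 0.000135).

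Stress response lists contained opposing changes. NRF2 is the transcription factor of the antioxidant response. Of 37 of its targets, 12 fell and 5 rose, with a median of -0.054 that became 0.012 on library totals alone; 10 fell and 8 rose after the GC correction. The falls included AKR1C2, an aldo-keto reductase, which read 404, 393 and 414 CPM under DMSO and 261, 267 and 281 CPM under temozolomide (log2 fold change -0.58, SE 0.04, adjusted p = 9.98e-10). AKR1C1 and AKR1C3 fell by 0.53 and 0.62 (adjusted p = 2.93e-09 and 1.98e-09); these near-identical copies can share reads, so their separate levels are uncertain. ABCC2 and ABCC3, efflux pumps of conjugated compounds, fell by 0.54 and 0.44 (adjusted p = 1.21e-07 and 5.53e-08). The rises included SLC7A11, the cystine transporter, which read 206, 206 and 185 CPM under DMSO and 259, 267 and 257 CPM under temozolomide (log2 fold change 0.39, SE 0.04, adjusted p = 3.45e-07). The change of SLC7A11 was 0.27 after the GC correction. NQO1, a quinone reductase, read 367, 358 and 376 CPM under DMSO and 421, 429 and 435 CPM under temozolomide (log2 fold change 0.22, SE 0.031, adjusted p = 2.09e-05). GCLC, which limits glutathione synthesis, rose by 0.21 (adjusted p = 0.000995). HMOX1, heme oxygenase, read 19.7, 18.4 and 17.4 CPM under DMSO and 15.8, 14 and 14.3 CPM under temozolomide and fell (log2 fold change -0.32, SE 0.085, adjusted p = 0.00686). SLC7A11, NQO1 and GCLC thus rose while the AKR1C genes, the ABCC genes and HMOX1 fell.

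In the integrated stress response, the pathway that lowers translation and raises amino acid genes through ATF4, 14 of 45 genes fell and 6 rose (10 and 8 after the GC correction; 4 and 9 on library totals alone; 6 falls without DMSO replicate 1 and 9 without temozolomide replicate 3), with a median of -0.076 that was above 0 with the FPKM values. ATF4 was not called (log2 fold change -0.086, SE 0.039, adjusted p = 0.109) except without temozolomide replicate 2, and neither was DDIT3, its target in cell death (adjusted p = 0.489). ASNS, asparagine synthetase, rose by 0.28 (adjusted p = 2.78e-05), with 44.6% of its exon bases in an overlapping gene, and ALDH1L2, a mitochondrial folate enzyme, read 54.1, 52.8 and 53.1 CPM under DMSO and 60.8, 65.1 and 65.9 CPM under temozolomide (log2 fold change 0.26, SE 0.05, adjusted p = 0.000548). SLC7A1, a transporter of cationic amino acids, fell by 0.23 (adjusted p = 0.0002). Of 32 genes of the BCL2 family and caspases, 7 rose (21.9%) and 2 fell (6.25%), beside 11.7% and 15.8% of all genes. Without temozolomide replicate 2, 3 rose. BIRC2, an inhibitor of apoptosis, read 64.4, 68 and 66 CPM under DMSO and 77.8, 81 and 79 CPM under temozolomide (log2 fold change 0.26, SE 0.04, adjusted p = 5.1e-05). The change of BIRC2 was 0.17 after the GC correction. BCL2L1, which blocks mitochondrial cell death, fell by 0.25 (adjusted p = 2.08e-05; -0.17 after the GC correction); 43% of its exon bases overlap ABALON. Of 5 tested genes of the metallothionein list, 3 rose. They were MT1E (0.28, adjusted p = 0.00901), MT2A (0.18, adjusted p = 0.0319) and SLC30A1 (0.14, adjusted p = 0.0389). SLC30A1 is a zinc transporter and not a metallothionein. Without single libraries 0 to 2 of the 5 rose, and MT1E was not called without DMSO replicate 2.

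Interferon-stimulated genes had 4 rises (5.97%) and 6 falls (8.96%) among 67, beside 11.7% and 15.8% of all genes, and 7 and 4 after the GC correction, with a median of 0.036 that ranged from -0.014 to 0.055 as single libraries were left out. HERC5, the ligase that attaches ISG15, read 21.3, 21.2 and 21.4 CPM under DMSO and 27.7, 25 and 26.9 CPM under temozolomide (log2 fold change 0.32, SE 0.073, adjusted p = 0.00212). NLRC5, the activator of antigen presentation genes, read 54.2, 55.1 and 55.6 CPM under DMSO and 45.3, 41.7 and 45.8 CPM under temozolomide (log2 fold change -0.31, SE 0.05, adjusted p = 8.82e-05). Of 31 NF-kB targets and cytokines, 5 fell (16.1%, beside 15.8% of all genes) and 1 rose, with 3 falls without temozolomide replicate 2. CCL2, the monocyte chemokine, read 17.2, 14.1 and 16 CPM under DMSO and 6.58, 5.20 and 7.73 CPM under temozolomide (log2 fold change -1.27, SE 0.11, adjusted p = 5.53e-08), and CXCL8, a neutrophil chemokine, fell by 1.26 (adjusted p = 0.00487) at levels of 0.585 to 1.71 CPM. TNFAIP2 read 484, 469.7 and 501 CPM under DMSO and 325, 311 and 309 CPM under temozolomide (log2 fold change -0.62, SE 0.04, adjusted p = 5.06e-10). Of the other 15 lists drawn up, which are not described, the oligodendrocyte and immune lists had 1 tested member each, and the 13 with at least 5 had 0 to 33.3% of members higher and 0 to 50% lower, with medians from -0.46 to 0.041.

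**Figure D3:**
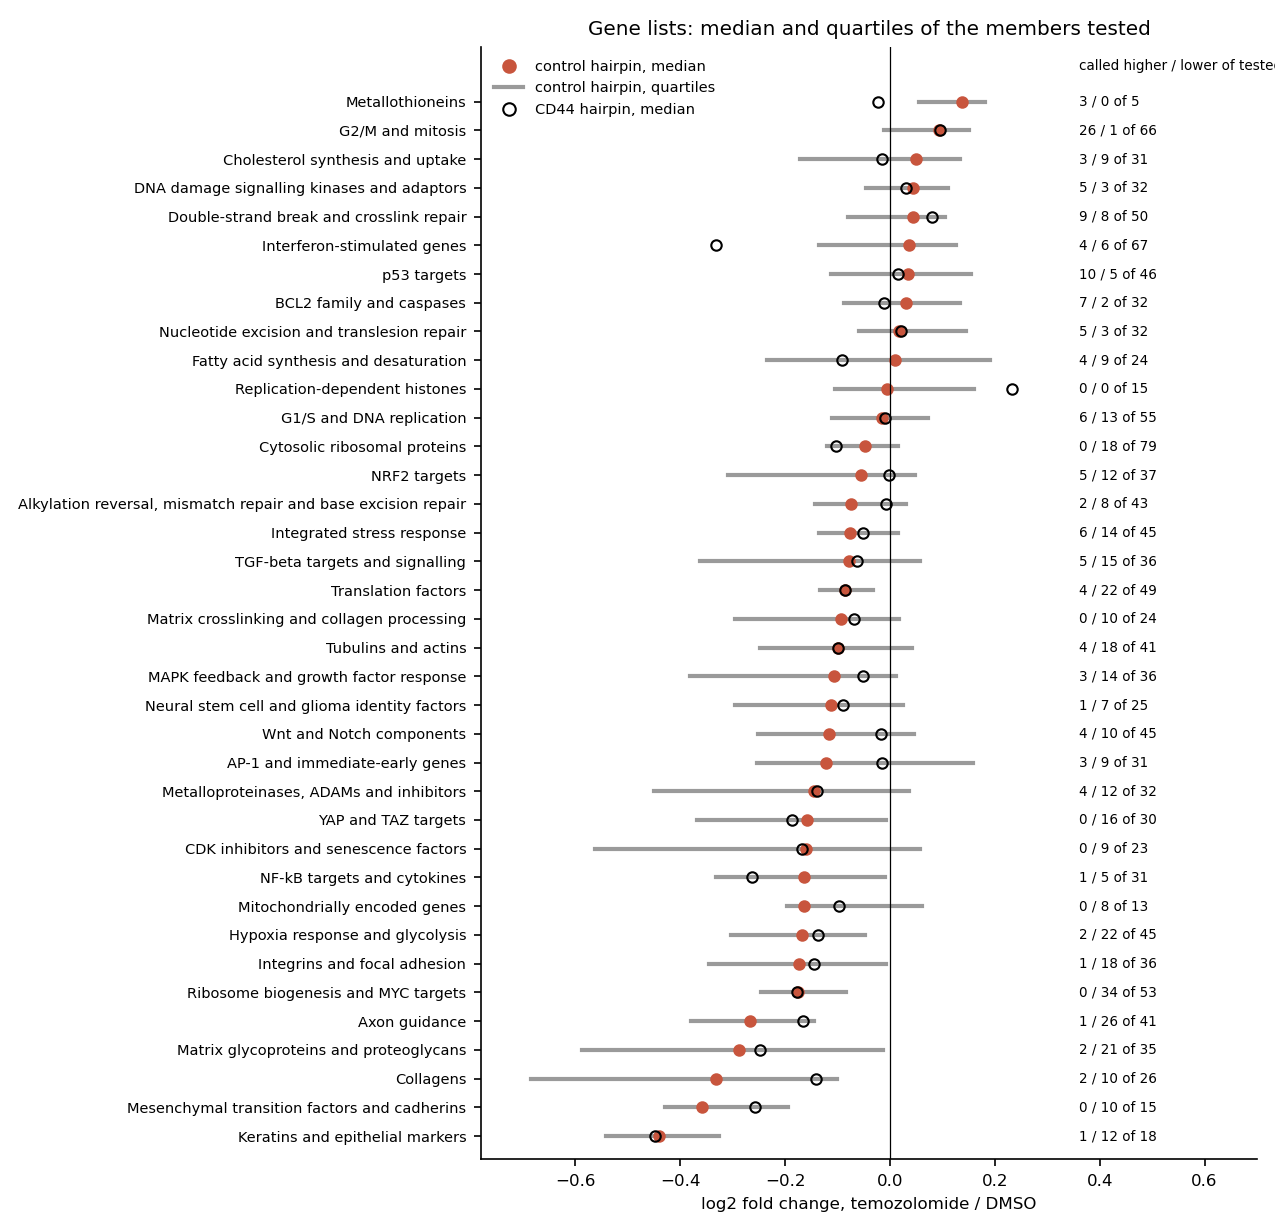
Median (filled points) and quartiles (grey bars) of the log2 fold change of temozolomide over DMSO in control-hairpin cells for each of 37 gene lists, with the median in CD44-hairpin cells as open points and the counts called higher and lower at the right. Keratins, mesenchymal factors and collagens lie lowest. The metallothionein list, which also holds the zinc transporter SLC30A1, and the G2/M genes lie highest.

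Some of the largest changes fell outside these lists. The largest falls among genes with at least 5 CPM and no overlap began with C1orf116, an androgen-responsive gene, which read 10.9, 10.9 and 10.8 CPM under DMSO and 2.73, 3.33 and 3.22 CPM under temozolomide (log2 fold change -1.83, SE 0.15, adjusted p = 1.35e-08). IL7R, the receptor of interleukin 7, read 58.2, 58.2 and 59.9 CPM under DMSO and 17.3, 19.5 and 18.9 CPM under temozolomide (log2 fold change -1.67, SE 0.068, adjusted p = 7.93e-13). NOS2, the inducible nitric oxide synthase, read 17.5, 16.8 and 16.3 CPM under DMSO and 6.29, 5.81 and 6.21 CPM under temozolomide (log2 fold change -1.46, SE 0.10, adjusted p = 5.93e-10). The 3 genes kept 28.4%, 31.6% and 36.2% of their DMSO levels, and libraries of a group lay close together. CDH5, the endothelial cadherin, which some glioma cells express, read 41.1, 46.2 and 45.1 CPM under DMSO and 19.2, 22.9 and 22.8 CPM under temozolomide (log2 fold change -1.04, SE 0.071, adjusted p = 1.02e-09). NTRK3, a neurotrophin receptor, fell by 1.07 (adjusted p = 5.86e-06), and EDN2, an endothelin, by 1.33 (adjusted p = 0.000358). The other 6 of these 12 falls were CCL2, LGALS9, which has near-identical copies, MUC6, NINL, SYT12 and MUC5B, between -1.27 and -1.01 on the log2 scale.

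The largest rises were smaller and came from genes of low level. REEP1, which shapes the endoplasmic reticulum, read 2.83, 3.45 and 3.29 CPM under DMSO and 7.82, 7.56 and 6.32 CPM under temozolomide (log2 fold change 1.19, SE 0.15, adjusted p = 4.11e-06). DHRS2, a mitochondrial dehydrogenase that responds to stress, read 20.2, 19 and 20.4 CPM under DMSO and 34.3, 32.6 and 35.7 CPM under temozolomide (log2 fold change 0.78, SE 0.069, adjusted p = 4.71e-08). TXNIP, which binds thioredoxin and restrains glucose uptake, read 12.6, 11.5 and 13.6 CPM under DMSO and 21.2, 20.9 and 19 CPM under temozolomide (log2 fold change 0.70, SE 0.11, adjusted p = 6.5e-05). The choice of the 12 largest rises required libraries without overlap, and DHRS2 and TXNIP were the only members above 10 CPM. CAMK4, a calcium-dependent kinase, rose by 0.73 (adjusted p = 0.000221) and CSRNP3 by 0.76 (adjusted p = 0.000623). ENSG00000285953 led the list at 1.48, but 96.2% of its exon bases overlap KRIT1, its DMSO libraries ranged from 0.796 to 5.92 CPM, and it was not called by DESeq2, with the unfiltered FPKM values or without DMSO replicate 3. By mean CPM, the largest losses included MT-CO1, MT-ND4, MT-CO3, ENO1 and VIM. The largest gains were HSP90AA1, TOP2A, HMGN2, HNRNPA2B1, APLP2 and RRM2. HSP90AA1, the inducible cytosolic chaperone, read 2647, 2695 and 2596 CPM under DMSO and 2823, 2953 and 2901 CPM under temozolomide (log2 fold change 0.13, SE 0.03, adjusted p = 0.00298), and HMGN2, a nucleosome-binding protein, read 955, 927 and 993 CPM under DMSO and 1092, 1131 and 1092 CPM under temozolomide (log2 fold change 0.21, SE 0.032, adjusted p = 5.9e-05).

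Calls in this comparison tracked base composition. When the 12782 genes with a known GC content were split by it into 5 bins of equal size, the share called higher was 29.1% in the bin with the least GC and 2.15% in the bin with the most, while the share called lower went from 6.53% to 23.3%. After the GC correction the same shares were 12.8% and 7.98% for rises and 13.5% and 13.1% for falls. Under the CD44 hairpin, where the libraries' tilt differed by 0.044 (exact permutation p = 0.6), 8.64% and 9.27% were higher in the same bins and 14.3% and 8.33% lower. Genes for zinc finger proteins with names in ZNF, a set picked after the data were seen, had a median GC content of 43.0%. They showed 78 rises and 18 falls among 454, with a median of 0.11, beside 11.7% and 15.8% of all genes. Their calls after the GC correction were not counted. Among genes called lower, the AP-1 motif TGACTCA was in 7.28% of promoters, against 3.74% among genes called higher and 4.88% of all.

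**Figure D4:**
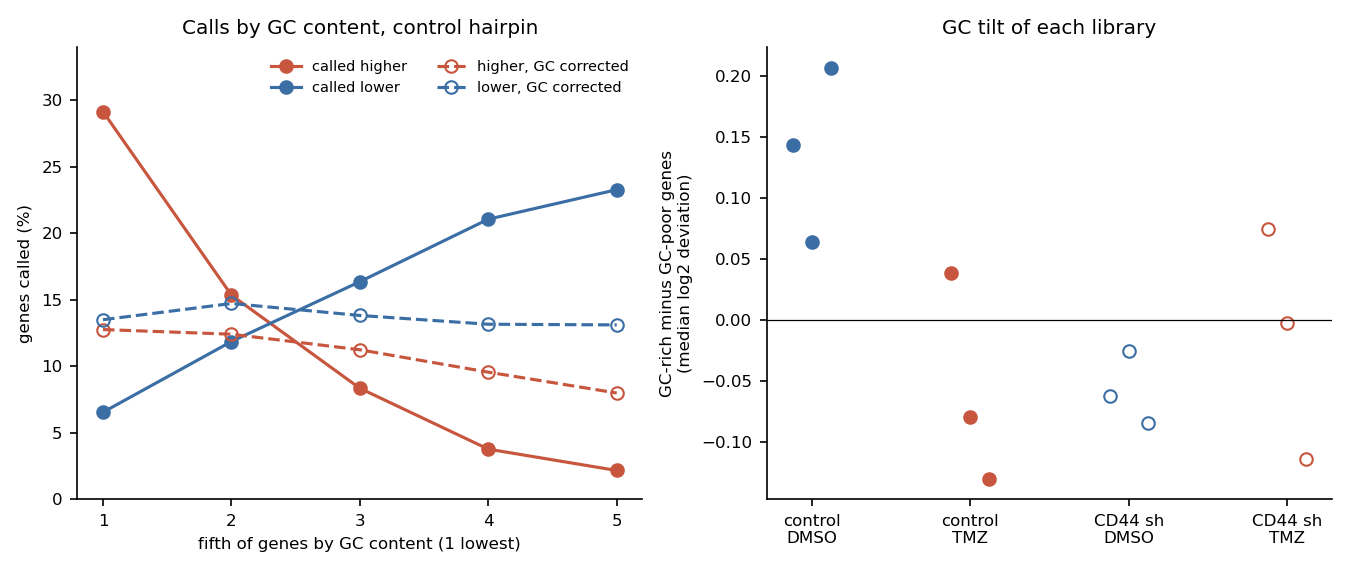
Left, percent of genes called higher (red) and lower (blue) in each of 5 bins of genes by GC content, from the lowest to the highest, without (filled, solid) and with (open, dashed) a GC correction. Right, the tilt of each library, as the log2 deviation of genes with over 60% GC minus that of genes with under 40%; all 3 control DMSO libraries lie above the 3 control temozolomide libraries.

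The same treatment was given to cells with the CD44 hairpin, and the comparison addresses whether the response differs between the hairpins. An effect of CD44 itself cannot be told apart from other differences between cells with each hairpin. With the CD44 hairpin, 2854 genes (22.3%) were called, 1160 (9.05%) higher and 1694 (13.2%) lower. Of the calls, 1621 were shared in the same direction, 45.9% of those in control cells and 56.8% of those with the CD44 hairpin, and 21 had opposite directions. COL1A2 fell by 0.98 and PDGFRA by 0.86 with the CD44 hairpin, beside 0.92 and 0.88 in control cells. The G2/M list had 21 rises and 1 fall there, and ribosome biogenesis 31 falls and 0 rises. The difference between the responses was tested gene by gene, and 135 genes (1.05%) differed, 92 of them called in control cells; this number was 33 after the GC correction and ran from 19 without control temozolomide replicate 2 to 395 without control temozolomide replicate 1.

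Several genes fell under the control hairpin more than under the CD44 hairpin. NOS2 fell by 1.46 against 0.55, a difference of 0.91 (SE 0.14, adjusted p = 0.00505). PLEKHG5, a guanine nucleotide exchange factor, read 43.2, 47.6 and 48.4 CPM under DMSO and 32.1, 28.8 and 29.4 CPM under temozolomide (log2 fold change -0.62, SE 0.062, adjusted p = 2.76e-07) and had a log2 fold change of -0.033 with the CD44 hairpin (adjusted p of the difference = 0.00423). TGFBI fell by 0.63 against 0.29 (adjusted p of the difference = 0.00783). C4B, a complement component with a near-identical copy in C4A, had 21, 20 and 19 reads under DMSO and 0, 3 and 0 under temozolomide; with the CD44 hairpin its log2 fold change was 0.36 (adjusted p of the difference = 0.00423). Others fell more with the CD44 hairpin. IGFBP5, an insulin-like growth factor binding protein, read 1272, 1401 and 1324 CPM under DMSO and 769.6, 714 and 751 CPM under temozolomide (log2 fold change -0.84, SE 0.04, adjusted p = 5.83e-12) and fell by 1.31 with the CD44 hairpin (adjusted p of the difference = 0.000664). EHF, an epithelial ETS factor, fell by 0.30 against 1.02 (adjusted p of the difference = 0.00073). EDIL3, KITLG and SNTB1 were not called in control cells (adjusted p = 0.761, 0.749 and 0.923) and fell with the CD44 hairpin by 0.47, 0.39 and 0.54; after the GC correction EDIL3 was also called lower in control cells (-0.11, adjusted p = 0.0391). Differences were called for each of these 3 (adjusted p = 0.00211, 0.00657 and 0.00657). Interferon-stimulated genes, with 4 rises and 6 falls in control cells, had 0 rises and 32 falls with the CD44 hairpin, and medians of 0.036 and -0.33; the difference itself was called for 3 of the 67.

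**Figure D5:**
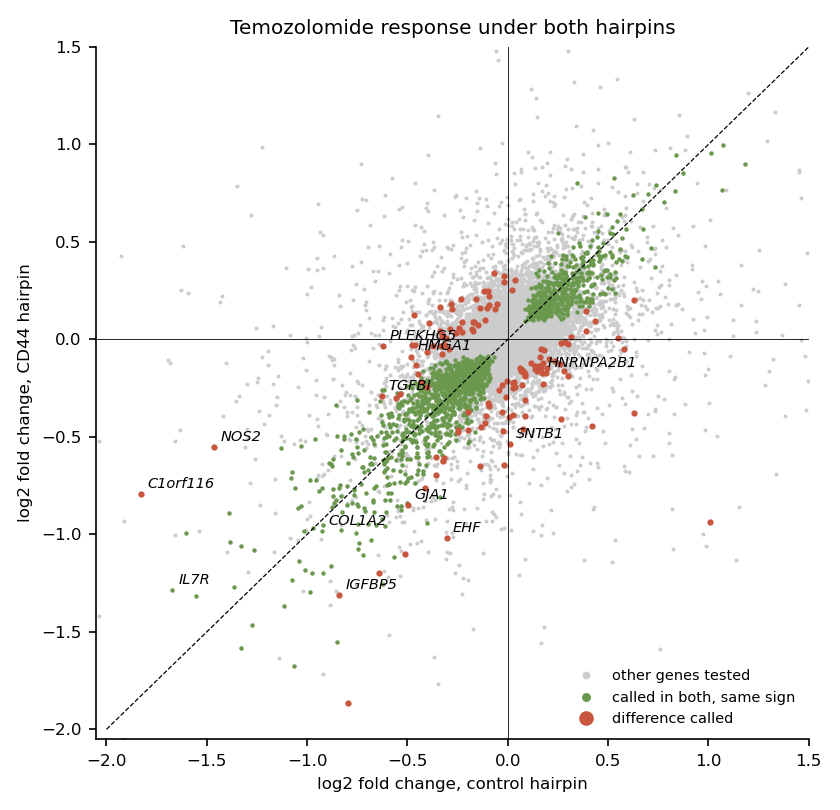
Log2 fold change of temozolomide over DMSO in control-hairpin cells (horizontal) and in CD44-hairpin cells (vertical) for each gene tested, with the dashed line marking equal change. COL1A2 and IL7R lie at the lower left, IGFBP5 and EHF below the line and NOS2, PLEKHG5 and TGFBI above it; 48 genes outside the axes are not drawn.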

How the data were processed

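Poly(A) RNA libraries made with the NEBNext Ultra kit, which is not stated to mark strand, were read on a NovaSeq machine according to the labels' protocols. The submitters' processing notes list RSEM, HISAT2, StringTie 1.3.1, fastp 0.18.0 and Bowtie2 2.2.8, with no role given for each; the genome build is not given in the sources used here. The authors deposited estimated counts for every gene, of which 10.7% to 12.0% in a library were not whole, and FPKM, fragments scaled to gene length and library total.

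The rounded counts went into edgeR 4.0.16 (R 4.3.3), with filterByExpr and TMM at their defaults and all 12 libraries in 1 quasi-likelihood fit of the 4 groups; p-values were adjusted over all genes tested by the Benjamini-Hochberg method and called below 0.05. Each SE is the log2 fold change over the root of F, and CPM are TMM scaled, except the sums over cell type markers and the COL1A1 level, which use library totals. The script was tested on simulated data. GC content, exon overlap and positions come from GENCODE 29 (GRCh38), joined by gene ID for 20171 IDs. DESeq2 1.42.0 and limma 3.58.1 on log2(FPKM + 1) were alternatives, and the GC correction used splines with 5 degrees of freedom per library as offsets.

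Gene lists, 52 in number, and the members were chosen with earlier results of these data known. Named genes follow a rule: the 12 largest called rises and falls without overlap and with at least 5 CPM, the 6 largest gains and losses in mean CPM, up to 4 genes per direction with the smallest p from lists with at least 3 calls, the 6 smallest p each way for the difference of responses, and a set of DNA damage, repair and identity genes. The text names a part of them, picked with their calls under the alternatives in view, so the named genes look steadier than all that the rule takes. Replicate numbers did not pair the libraries, so no block was used. Some genes that the rule takes are not reported here.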

Additional observations from a re-analysis of the deposited data

Results flagged for a closer look

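The difference between the temozolomide responses under the CD44 and the control hairpin was tested itself (edgeR, Benjamini-Hochberg adjusted over all genes). Of the 135 genes that passed, 21 are among the genes taken up in this text and are given here. Some of the 21 were picked for their small p in that test. Values below are the response with the CD44 hairpin minus that in control cells, on the log2 scale. IGFBP5 (-0.47), EHF (-0.71), EDIL3 (-0.45), KITLG (-0.41), SNTB1 (-0.55), NOS2 (0.91), PLEKHG5 (0.59), TGFBI (0.34) and C4B (4.799) were called in every setting run for them. The settings for the difference did not include the FPKM fits. In those fits the fall of C4B in control cells, which rests on few reads, was not called. CLIC4 (-0.29) and HNRNPA2B1 (-0.34) were called in 16 of 17 settings and PXN (0.30) in 14 of 17. The others depended more on the setting: CAPNS1 (0.32), HMGA1 (0.39), GJA1 (-0.35), HMGCS1 (-0.29), FASN (0.27), SLC7A11 (-0.25), ENO1 (0.16), C1orf116 (1.03) and XIAP (-0.25) were called in 6 to 12 settings. HNRNPA2B1, an RNA-binding protein, read 942, 975 and 985 CPM under DMSO and 1038, 1129.5 and 1099 CPM under temozolomide in control cells and 1029.5, 999.9 and 1011 CPM under DMSO and 840.3, 874 and 980.2 CPM under temozolomide with the CD44 hairpin. HMGA1, a chromatin protein, read 388, 355 and 375 CPM under DMSO and 288, 266 and 246 CPM under temozolomide in control cells and 389.8, 385 and 388 CPM under DMSO and 396, 342 and 357 CPM under temozolomide with the CD44 hairpin. GJA1, the gap junction protein connexin 43, read 500.3, 521 and 526 CPM under DMSO and 340.1, 378 and 381 CPM under temozolomide in control cells and 442, 448 and 449 CPM under DMSO and 226, 267 and 249 CPM under temozolomide with the CD44 hairpin. HNRNPA2B1 thus rose in control cells and fell with the CD44 hairpin, HMGA1 was called lower in control cells and not with the CD44 hairpin (adjusted p = 0.241), and GJA1 fell in both. The GC tilt of the libraries differed between treatments in control cells; 33 differences were called after the GC correction, against 135 without it.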

How the results depend on the processing

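Of the 1505 rises and 2024 falls called, 554 and 740 were called in each of the 19 settings that tested them. Of 222 genes followed through the alternatives, the 7 whose log2 fold change took both signs were not called in the reported fit. The 222 are genes chosen for the text, many for small p or large change and with these calls in view. They therefore do not measure how steady all calls are. At an adjusted p below 0.01, 2187 genes were called, 812 of them higher. With library totals alone there were 2870 rises, 136 of them of at least 1.5-fold, and 1295 falls. Limma on the FPKM values gave 924 falls with a pseudocount of 1, 923 with 0.1 and 835 without a filter. Rises of at least 1.5-fold numbered 22 (pseudocount 1), 21 (no filter) and 42 (adjusted p below 0.01), and falls of that size 49, 137 (pseudocount 0.1) and 46 (no filter). Rises of at least 2-fold numbered 54 without a low-count filter, 2, 18 and 2 in the 3 FPKM fits and 13 at the stricter p; falls of that size were 6, 35 and 5 in the FPKM fits and 36 at the stricter p. The pseudocount shrinks the folds of low genes; other causes were not tested. Leaving out each control library gave 1071 to 1506 rises and 1548 to 1907 falls.

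The 135 differences between responses became 337 with DESeq2, 33 with the GC correction and 51 with a GC and length correction, an alternative chosen after seeing the data. Without single libraries they ran from 19 (without control temozolomide replicate 2) to 395 (without control temozolomide replicate 1), with 22 and 272 without control DMSO replicates 1 and 2, 28 without control temozolomide replicate 3, 25, 67 and 31 without CD44-hairpin DMSO replicates 1 to 3, and 76 and 394 without CD44-hairpin temozolomide replicates 1 and 3. With the replicate number as a block they were 222, and 1580 rises and 2089 falls were called in control cells. The numbers share no stated source: same-numbered DMSO and temozolomide libraries had correlations of -0.0235 to 0.0444 over both hairpins, so the block is no pairing.

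Medians changed sign under some alternative for 9 of the 37 lists described; in 3 of them the median lay further from 0 than the spread between libraries. With FPKM (pseudocounts of 1 and 0.1, and no filter) they were 0.0036, 0.0037 and 0.0018 for alkylation reversal, mismatch and base excision repair, and 0.0089, 0.0089 and 0.019 for the integrated stress response. NRF2 targets gave 0.012 on library totals alone and 0.014, 0.015 and 0.014 with FPKM. Among named genes, calls of MT-CO1, MT-ND4, MT-CO3, BRCA1, C4B and MUC5B were lost in the FPKM fits, those of MDM2, HMOX1, COL4A4, CAMK4, NINL and MT-ND2 only in the unfiltered one, and APLP2 was not called without DMSO replicate 1 or temozolomide replicates 1 or 2. Depth limits genes near the floor of 3 counts, and 3 libraries a group limit all tests.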

Other observations

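NXF2, an RNA export factor gene with near-identical copies on the X chromosome, was singled out after its values were seen. In control cells it had 0, 0 and 2 reads under DMSO and 309, 0 and 244 under temozolomide. With the CD44 hairpin it had 194, 214 and 0 under DMSO and 216, 248 and 160 under temozolomide. Libraries of 1 group thus held either at least 160 reads or at most 2 in 2 of the 4 groups, control cells with temozolomide and CD44-hairpin cells with DMSO.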
